A study of Mus musculus with 9 samples.

Results

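Genes typical of hepatocytes and of the visceral endoderm, the absorptive outer layer of the yolk sac, were examined in the circulating blood of E12.5 mouse embryos. The list held 39 genes, and a gene was measured where the platform annotation assigned at least 1 probe set to it alone. By this rule 36 of the 39 were measured, of 18193 genes in all, each through the brightest of its own probe sets (mean of 9 arrays). Gc, Trf and Serpina1a had no such probe set and are not analysed here, and the listed Spink3 carries the current symbol Spink1. The embryos came from intercrosses of Cbfb+/ΔC95 parents on a mixed C57BL6/129SvEv background. They were homozygous (CbfbΔC95/ΔC95), heterozygous (Cbfb+/ΔC95) or wild type (Cbfb+/+), with 3 Affymetrix whole-genome arrays per genotype and 9 in all. Cbfb encodes CBFβ, the partner that stabilizes RUNX proteins on DNA. By its title the series is about the C-terminus of CBFβ-SMMHC, a leukemia fusion protein, and the labels name the ΔC95 allele without describing it further. Each RNA was a pool of blood from 8 to 10 embryos of a genotype, and whether arrays of 1 genotype stand for different pools is not given. The spread behind the p-values below may therefore be technical.

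Hepatocytes make most proteins of the plasma, among them albumin, apolipoproteins, clotting factors and protease inhibitors. Before and alongside the fetal liver, the visceral endoderm of the mouse yolk sac makes many of the same proteins, including alpha-fetoprotein, transthyretin and apolipoproteins, and takes up nutrients through receptors such as cubilin and its partner amnionless. In both tissues the genes are switched on by HNF4A, the FOXA factors and other liver-enriched transcription factors. Blood cells are not a known main source of most of these messengers, and the values below describe transcripts in a blood RNA pool and not in liver or yolk sac.

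Blood markers were present in each genotype. The embryonic globin gene Hba-x averaged 14.35 ± 0.02 on the homozygous arrays, 14.31 ± 0.01 on the heterozygous arrays and 14.30 ± 0.01 on the wild-type arrays (log2, SD, n = 3 each). Cbfb itself, the targeted gene, averaged 5.10 ± 0.16 on the homozygous, 5.77 ± 0.04 on the heterozygous and 6.01 ± 0.03 on the wild-type arrays. Arrays correlated at r = 0.996 to 0.998 within a genotype over all probe sets and at 0.987 to 0.995 between genotypes. The deposited values had been equalized between arrays, with medians of 4.27 to 4.30, so a uniform change of RNA content is not visible in them. Control transcripts of bacterial origin, the poly-A spike-ins, differed by genotype after this step. Their 24 probe sets averaged 11.96 ± 0.02 on the homozygous, 11.26 ± 0.00 on the heterozygous and 10.38 ± 0.02 on the wild-type arrays. Every direction below is thus relative to the rest of the array. With the arrays set to equal spike-in means, a setting chosen after seeing the data, all 36 measured genes fell below wild type in homozygous blood, and all 36 did so in heterozygous blood. This setting lowers every gene alike, by 1.58 in homozygous and 0.88 in heterozygous against wild-type blood (log2). With it, 10 of 10 endothelial genes and 19 of 19 hepatocyte enzyme genes also fell in both contrasts.

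In homozygous blood a set of secreted carrier proteins and apolipoproteins rose above wild type. Of the 36 measured genes, 9 rose and 0 fell at an adjusted p of 0.05 (limma, Benjamini-Hochberg over 45037 probe sets), against 10.7% of all genes that rose and 14.9% that fell, 25.6% in either direction. The list was chosen with earlier results of these data known, so these shares are not an independent test of it. The 9 were Afp, Rbp4, Apoa1, Apoa2, Ttr, Apoa4, Alb, Hpx and Fgb, with differences of 0.26 to 1.06 on the log2 scale. The homozygous arrays lay wholly above the wild-type arrays for 12 of the 36 genes and wholly below for 0, against 20.9% and 18.3% of all genes. The median difference of the 36 was 0.089, beside 0.046 over all genes, and without wild-type replicate 3 the median of the 36 was 0.16. When the arrays were scaled to reference genes, the median over all genes was 0.12 and that of the 36 was 0.16. By role, the test was passed by 5 of 8 carriers, 3 of 9 apolipoprotein and lipid transfer genes, 0 of 6 protease inhibitors, 1 of 7 coagulation genes, 0 of 3 receptors and surface proteins and 0 of 3 transcription factors. Transcript levels in such a pool do not tell fewer cells of a type from less RNA per cell.

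**Figure D1:**
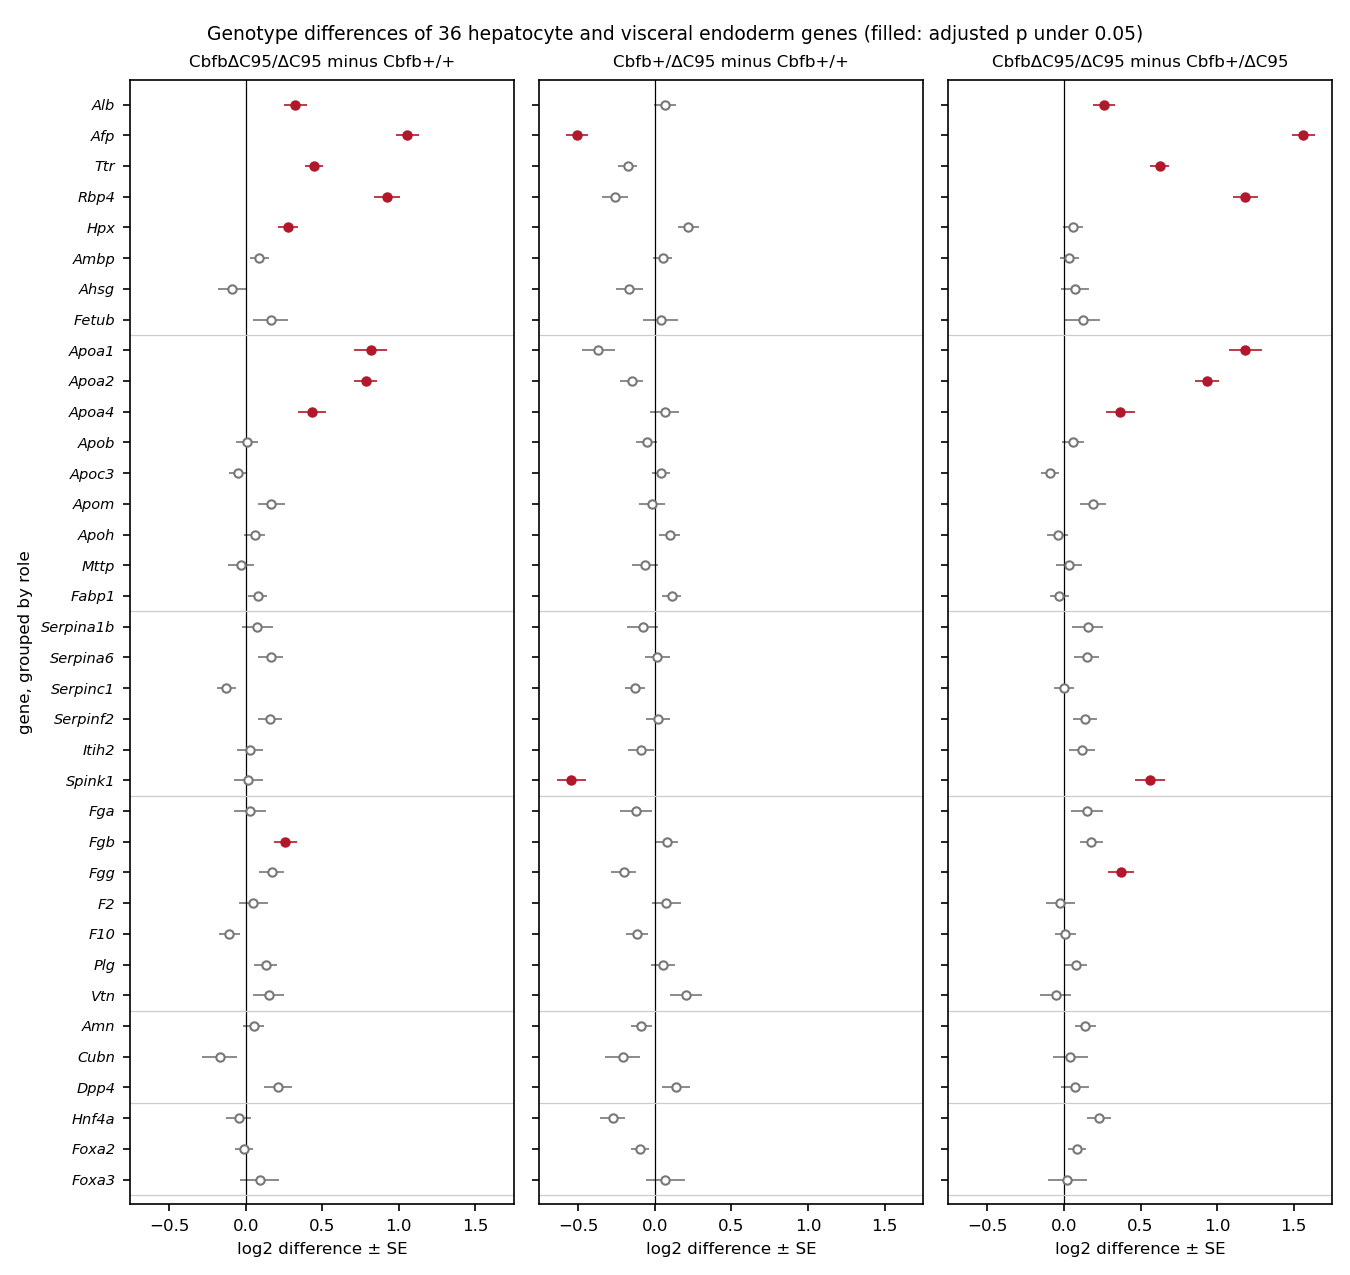
Differences between genotypes for the 36 measured genes, grouped by role, in 3 panels, with the log2 difference ± SE on the horizontal axis and filled points for an adjusted p under 0.05. In the left panel, homozygous minus wild type, the 9 filled points lie between 0.26 and 1.06. With arrays set to equal spike-in means, which lowers every gene by 1.58 in that panel, all 36 differences there are below 0.

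Afp encodes alpha-fetoprotein, the fetal relative of albumin made by visceral endoderm and fetal liver. Its promoter is shown with that of its neighbour Alb, since the genes lie next to each other on chromosome 5 and both rose in homozygous blood by different amounts. The sequences are from RefSeq, build GRCm38.p6, and run 5′ to 3′ on the strand of the gene, which for both is plus. Capitals mark exact matches on either strand to GTTAAT (HNF1), TNTTTAC (FOXA), CAAAGTC (HNF4) or TTGCNNAA (CEBP), and no marked matches overlap. The Afp window is chr5:90490464-90490763 and the Alb window chr5:90460620-90460919, each from 250 bases before to 50 after the start.
Afp: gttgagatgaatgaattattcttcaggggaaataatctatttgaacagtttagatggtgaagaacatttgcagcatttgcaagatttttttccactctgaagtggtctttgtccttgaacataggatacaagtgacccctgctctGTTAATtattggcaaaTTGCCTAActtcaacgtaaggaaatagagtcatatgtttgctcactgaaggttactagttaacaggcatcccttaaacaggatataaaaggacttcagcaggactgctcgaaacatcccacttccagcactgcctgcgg
Alb: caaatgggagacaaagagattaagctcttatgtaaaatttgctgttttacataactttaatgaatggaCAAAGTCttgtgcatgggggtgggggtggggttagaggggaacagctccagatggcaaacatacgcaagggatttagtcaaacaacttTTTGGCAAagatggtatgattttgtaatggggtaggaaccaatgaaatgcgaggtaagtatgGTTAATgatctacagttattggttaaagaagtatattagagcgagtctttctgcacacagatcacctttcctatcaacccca
The Afp window held 1 HNF1 and 1 CEBP match, and the Alb window held 1 HNF1, 1 HNF4 and 1 CEBP match.

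By the brightest probe set of each gene, Afp had the largest differences of homozygous blood from both other genotypes among the 36, an order that other probe sets changed. Its log2 values were 9.04, 8.87 and 8.85 on the homozygous arrays, 7.41, 7.42 and 7.23 on the heterozygous arrays, and 7.83, 7.88 and 7.88 on the wild-type arrays. The 3 genotypes did not overlap, with the homozygous arrays highest and the heterozygous arrays lowest. Afp was 2.08-fold higher in homozygous than in wild-type blood (log2 difference 1.06, SE 0.07, limma adjusted p = 6.86e-07). It was lower in heterozygous than in wild-type blood (log2 difference -0.51, SE 0.07, limma adjusted p = 0.00102). Homozygous blood exceeded heterozygous blood 2.96-fold (limma adjusted p = 8.36e-08).

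Alb, the main protein of adult plasma, had log2 values of 5.30, 5.19 and 5.10 on the homozygous arrays, 4.91, 5.03 and 4.86 on the heterozygous arrays, and 4.85, 4.80 and 4.96 on the wild-type arrays. The homozygous arrays lay above all others, and the heterozygous and wild-type arrays overlapped. The homozygous rise over wild type was 1.25-fold (log2 difference 0.32, SE 0.07, limma adjusted p = 0.0064). The heterozygous difference from wild type was 0.07 (limma adjusted p = 0.721). Homozygous minus heterozygous was 0.26 (limma adjusted p = 0.0368), a call lost in 11 of 23 alternative settings. Among those settings were the fits without homozygous replicate 1 or 2, heterozygous replicate 1 or 3, or wild-type replicate 1, with adjusted p of 0.0542 to 0.117.

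Rbp4 and Ttr encode the plasma carriers of retinol, which circulate as a complex, and transthyretin also carries thyroid hormone. RefSeq gives Rbp4 a pair of start windows on the minus strand of chromosome 19, shown because Rbp4 rose almost as much as Afp. The first is chr19:38125272-38125571 and the second chr19:38124762-38125061, in GRCm38.p6, with capitals as above.
Rbp4 window 1: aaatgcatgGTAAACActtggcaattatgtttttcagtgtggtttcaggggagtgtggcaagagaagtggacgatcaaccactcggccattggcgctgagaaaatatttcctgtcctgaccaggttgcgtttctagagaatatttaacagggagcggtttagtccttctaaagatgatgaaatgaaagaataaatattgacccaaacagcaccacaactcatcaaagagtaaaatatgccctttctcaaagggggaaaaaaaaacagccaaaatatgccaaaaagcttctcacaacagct
Rbp4 window 2: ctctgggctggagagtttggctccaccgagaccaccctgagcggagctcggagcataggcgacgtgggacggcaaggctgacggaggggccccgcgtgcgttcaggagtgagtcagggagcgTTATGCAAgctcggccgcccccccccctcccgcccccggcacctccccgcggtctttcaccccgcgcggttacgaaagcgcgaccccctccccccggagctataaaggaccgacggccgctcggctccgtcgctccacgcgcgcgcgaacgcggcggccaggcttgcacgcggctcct
The first window held 1 FOXA match and the second 1 CEBP match. The arrays do not tell which start was used.

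Rbp4 had log2 values of 5.83, 5.53 and 5.67 on the homozygous arrays, 4.50, 4.60 and 4.37 on the heterozygous arrays, and 4.79, 4.68 and 4.79 on the wild-type arrays. The order was that of Afp, homozygous highest and heterozygous lowest, with no overlap. The homozygous rise over wild type was 1.90-fold (log2 difference 0.92, SE 0.08, limma adjusted p = 6.3e-06). Heterozygous minus wild type was -0.26 and missed the threshold (limma adjusted p = 0.0858). Ttr had log2 values of 7.56, 7.47 and 7.59 on the homozygous arrays, 6.84, 6.92 and 6.99 on the heterozygous arrays, and 7.11, 7.11 and 7.06 on the wild-type arrays. Again the genotypes did not overlap, and heterozygous blood was lowest. Ttr was 1.36-fold higher in homozygous than in wild-type blood (log2 difference 0.45, SE 0.06, limma adjusted p = 0.000185). Its heterozygous difference from wild type was -0.18 (limma adjusted p = 0.112). For Rbp4 and Ttr, homozygous minus heterozygous was 1.19 and 0.62 (limma adjusted p = 2.44e-06 and 3e-05).

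Hpx encodes hemopexin, which binds free heme in plasma. It had log2 values of 3.36, 3.33 and 3.48 on the homozygous arrays, 3.28, 3.33 and 3.38 on the heterozygous arrays, and 3.09, 3.03 and 3.21 on the wild-type arrays. Here the heterozygous arrays overlapped the homozygous ones, and both lay above wild type. The homozygous rise was 1.21-fold (log2 difference 0.28, SE 0.07, limma adjusted p = 0.0108), and without wild-type replicate 2 its adjusted p was 0.0546. Its heterozygous difference from wild type was 0.22 (limma adjusted p = 0.0722). The Hpx signal was low, with 25.5% of probe sets below it in wild-type blood. Whether it measured Hpx transcript is unknown. The other 3 carriers did not pass the test in any contrast. They were Ambp, the precursor of a small carrier protein and of bikunin, and the fetuins Ahsg and Fetub, at 0.09, -0.09 and 0.16 for homozygous minus wild type.

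**Figure D2:**
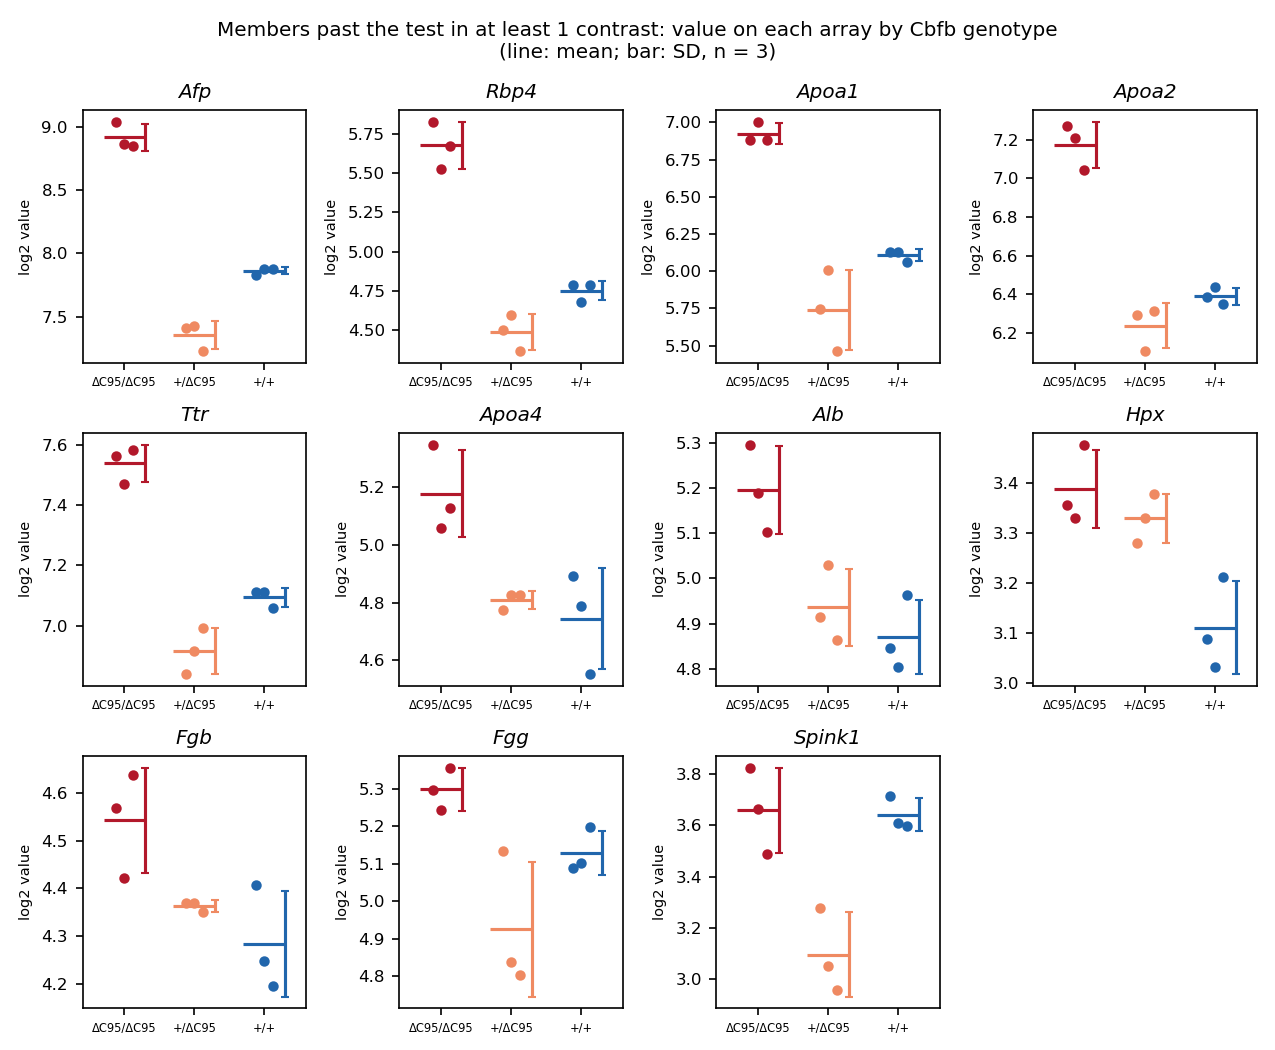
Log2 value on each array for the 11 genes past the test in at least 1 contrast, with homozygous, heterozygous and wild-type arrays from left to right, a line at the mean and a bar of 1 SD (n = 3). Afp, Rbp4, Apoa1, Apoa2 and Ttr share an order with homozygous arrays highest and heterozygous arrays lowest; the vertical axes differ between panels and do not start at 0.

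Of the 9 apolipoprotein and lipid transfer genes, Apoa1, Apoa2 and Apoa4 rose in homozygous blood. Apoa1 is the main protein of high-density lipoprotein. It lies beside Apoc3 and Apoa4 on chromosome 9. The Apoa1 start window, chr9:46228380-46228679 on the plus strand of GRCm38.p6, is shown because it held none of the 4 motifs. The window of Apoa4 held none of them either. A link between the motifs and the rise was not tested.
Apoa1: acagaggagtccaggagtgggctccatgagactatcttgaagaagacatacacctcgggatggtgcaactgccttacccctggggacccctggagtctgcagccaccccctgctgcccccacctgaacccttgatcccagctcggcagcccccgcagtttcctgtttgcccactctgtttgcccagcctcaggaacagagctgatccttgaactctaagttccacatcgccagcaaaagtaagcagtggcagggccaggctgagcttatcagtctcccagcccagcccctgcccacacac
The absence of these letters says nothing of other forms of the motifs or of sites outside the window.

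Apoa1 had log2 values of 6.88, 7.00 and 6.88 on the homozygous arrays, 5.75, 6.00 and 5.46 on the heterozygous arrays, and 6.13, 6.13 and 6.06 on the wild-type arrays. No genotypes overlapped, and the heterozygous arrays were both lowest and most spread. Apoa1 was 1.76-fold higher in homozygous than in wild-type blood (log2 difference 0.82, SE 0.11, limma adjusted p = 0.00014). Heterozygous minus wild type was -0.37 and missed the threshold (limma adjusted p = 0.0593). Without heterozygous replicate 2, the least low of the 3, the adjusted p of that contrast was 0.00721. Apoa2, the second protein of high-density lipoprotein, had log2 values of 7.27, 7.21 and 7.04 on the homozygous arrays, 6.30, 6.11 and 6.31 on the heterozygous arrays, and 6.38, 6.44 and 6.35 on the wild-type arrays. The homozygous arrays stood clear of the rest, and the heterozygous arrays lay just below wild type. Apoa2 was 1.72-fold higher in homozygous than in wild-type blood (log2 difference 0.78, SE 0.08, limma adjusted p = 1.15e-05), and heterozygous minus wild type was -0.15 (limma adjusted p = 0.329). For Apoa1 and Apoa2, homozygous minus heterozygous was 1.19 and 0.93 (limma adjusted p = 1.76e-05 and 8.12e-06).

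Apoa4, an apolipoprotein of triglyceride-rich particles and high-density lipoprotein, had log2 values of 5.35, 5.06 and 5.13 on the homozygous arrays, 4.77, 4.83 and 4.83 on the heterozygous arrays, and 4.89, 4.79 and 4.55 on the wild-type arrays. The heterozygous arrays lay within the wild-type range, and the homozygous arrays above both. The homozygous rise over wild type was 1.35-fold (log2 difference 0.43, SE 0.09, limma adjusted p = 0.0053). Heterozygous minus wild type was 0.07 (limma adjusted p = 0.796). Homozygous minus heterozygous was 0.37 (limma adjusted p = 0.0235), and this call was lost without homozygous replicate 1 or any one heterozygous replicate, with adjusted p of 0.0558 to 0.0818. Apoc3, an inhibitor of lipoprotein lipase encoded between Apoa1 and Apoa4, averaged 3.23 ± 0.07 on the homozygous, 3.32 ± 0.07 on the heterozygous and 3.28 ± 0.00 on the wild-type arrays. Its homozygous minus wild-type difference was -0.05 (limma adjusted p = 0.627), while its neighbours on both sides rose. Only 29.3% of probe sets had a lower wild-type mean, so whether this probe set measured Apoc3 is unknown.

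The other 5 genes of the group did not pass the test in any contrast. Apob, the structural protein of low-density lipoprotein, and Mttp, which loads lipid onto it, differed by 0.01 and -0.03 for homozygous minus wild type. Apom, a carrier of sphingosine 1-phosphate, averaged 6.25 ± 0.20 on the homozygous, 6.06 ± 0.02 on the heterozygous and 6.08 ± 0.02 on the wild-type arrays, and homozygous replicate 1 lay below the wild-type range. Apoh, beta-2-glycoprotein I, averaged 5.33 ± 0.05 on the homozygous, 5.37 ± 0.10 on the heterozygous and 5.27 ± 0.08 on the wild-type arrays. Fabp1, the fatty acid binding protein of liver, differed by 0.08 for homozygous minus wild type.

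Of the protease inhibitors, 0 of 6 rose in homozygous against wild-type blood, beside 10.7% of all genes, and 1 of 6 fell in heterozygous against wild-type blood, beside 7.04%. Spink1 encodes a trypsin inhibitor of the pancreas that is also made in other endodermal tissue of the mouse. It had log2 values of 3.82, 3.66 and 3.49 on the homozygous arrays, 3.28, 3.05 and 2.96 on the heterozygous arrays, and 3.71, 3.61 and 3.60 on the wild-type arrays. The heterozygous arrays lay below all others, and the homozygous and wild-type arrays overlapped. Spink1 was 1.46-fold lower in heterozygous than in wild-type blood (log2 difference -0.55, SE 0.10, limma adjusted p = 0.00375). Homozygous minus heterozygous was 0.56 (limma adjusted p = 0.00211) and homozygous minus wild type 0.02 (limma adjusted p = 0.926). The other 5 inhibitors were Serpina1b, an inhibitor of elastase-like proteases, Serpina6, the corticosteroid carrier, Serpinc1, antithrombin, Serpinf2, the plasmin inhibitor, and Itih2, a chain of the inter-alpha-inhibitor. Their homozygous minus wild-type differences lay between -0.13 and 0.16.

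Fibrinogen, the precursor of the fibrin clot, is built from chains encoded by Fga, Fgb and Fgg, which lie side by side on chromosome 3. Fgb had log2 values of 4.57, 4.42 and 4.64 on the homozygous arrays, 4.37, 4.37 and 4.35 on the heterozygous arrays, and 4.41, 4.25 and 4.19 on the wild-type arrays. The lowest homozygous array exceeded the highest wild-type array by little. Fgb was 1.20-fold higher in homozygous than in wild-type blood (log2 difference 0.26, SE 0.07, limma adjusted p = 0.0258), and this call was lost in 8 of 23 alternative settings. Those included leaving out homozygous replicate 1 or 3 or wild-type replicate 2 or 3, with adjusted p of 0.0673 to 0.107. Fgg had log2 values of 5.30, 5.24 and 5.36 on the homozygous arrays, 5.13, 4.84 and 4.80 on the heterozygous arrays, and 5.09, 5.10 and 5.20 on the wild-type arrays. The homozygous arrays lay above the rest, and heterozygous replicate 1 lay within the wild-type range. Fgg differed by 0.37 between homozygous and heterozygous blood (SE 0.08, limma adjusted p = 0.0121), whereas homozygous minus wild type was 0.17 (limma adjusted p = 0.196). Without heterozygous replicate 2 or 3 the adjusted p of the first of these was 0.0579 and 0.0507. Without heterozygous replicate 1, Fgg was lower in heterozygous than in wild-type blood, with a log2 difference of -0.31 (limma adjusted p = 0.0233). Fga averaged 2.49 ± 0.13 on the homozygous, 2.34 ± 0.23 on the heterozygous and 2.47 ± 0.07 on the wild-type arrays, and did not pass the test in any contrast.

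The other coagulation genes did not pass the test either. F10, the protease that activates prothrombin, averaged 5.17 ± 0.08 on the homozygous, 5.17 ± 0.08 on the heterozygous and 5.28 ± 0.09 on the wild-type arrays. F2, prothrombin, Plg, plasminogen, and Vtn, the adhesive plasma protein vitronectin, differed by 0.05, 0.13 and 0.15 for homozygous minus wild type. The receptors of the absorptive endoderm, Amn and Cubn, and the surface peptidase Dpp4 differed by 0.05, -0.17 and 0.21, with no call in any contrast. The 3 transcription factors were likewise not called. Hnf4a, a regulator of liver and visceral endoderm genes, averaged 5.88 ± 0.06 on the homozygous, 5.65 ± 0.11 on the heterozygous and 5.93 ± 0.14 on the wild-type arrays. Its heterozygous minus wild-type difference was -0.28 (limma adjusted p = 0.0595), with the heterozygous arrays wholly below wild type. The next Hnf4a probe set, almost as bright (mean 5.74 against 5.82), gave 0.01 for that contrast (limma adjusted p = 0.96). The dimmer Hnf4a probe sets gave -0.02 and -0.23, also not called. Foxa2 and Foxa3 differed by -0.01 and 0.09 for homozygous minus wild type.

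Against wild type, heterozygous blood gave calls by the brightest probe set for Afp and Spink1 alone. In that contrast dimmer probe sets of Apoa1 and Ttr were called lower. By the brightest probe sets 0 of the 36 genes rose and 2 fell, beside 4.79% of all genes that rose and 7.04% that fell (limma adjusted p of 0.05). The differences were positive for 16 genes and negative for 20. The heterozygous arrays lay wholly below the wild-type arrays for 10 of 36 genes and wholly above for 1, Hpx, against 15.7% and 14.2% of all genes. The median difference was -0.06, beside 0.01 over all genes. Homozygous against heterozygous blood gave 9 genes higher and 0 lower, against 5.38% and 10.4% of all genes. These were Afp, Rbp4, Apoa1, Apoa2, Ttr, Spink1, Fgg, Apoa4 and Alb, and the median of the 36 genes was 0.12, beside 0.03 over all genes. Scaled to reference genes, these medians were 0.20 and 0.11. The 3 contrasts share arrays and are not independent of each other.

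The heterozygous mean was the lowest of the 3 genotypes for 20 of the 36 genes, lay between the others for 11 and was the highest for 5. Over all 18193 genes it was lowest for 5059, between for 9042 and highest for 4092. Against the midpoint of the homozygous and wild-type means, 6 of the 36 genes were lower in heterozygous blood and 0 were higher (limma adjusted p of 0.05), beside 1.53% of all genes lower and 3.64% higher. The 6 were Afp, Rbp4, Apoa1, Spink1, Apoa2 and Ttr. Afp lay -1.04 from the midpoint (limma adjusted p = 1.86e-06), Apoa1 -0.78 (limma adjusted p = 0.000652) and Rbp4 -0.72 (limma adjusted p = 0.000161). Of the 6, Afp and Spink1 also fell below wild type in heterozygous blood. By their brightest probe sets the other 4 had heterozygous arrays wholly below wild type without passing that test.

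Several of the genes had more than 1 probe set, 63 in all over the 36 genes, and 21 genes had only 1. Over the 63, homozygous blood exceeded wild type in 20 and lay below it in 1 (limma adjusted p of 0.05), against 8.34% and 11.7% of all probe sets. In heterozygous against wild-type blood 0 were higher and 8 lower, against 3.41% and 5.15% of all probe sets. In homozygous against heterozygous blood 20 were higher and 1 lower, against 4.17% and 7.95% of all probe sets. The 4 Ttr probe sets differed by 0.45, 0.84, 1.23 and 1.23 for homozygous minus wild type and by -0.18, -0.35, -0.50 and -0.51 for heterozygous minus wild type. The Ttr probe set with the highest mean thus gave the smallest change in both contrasts, and the other 3 were called in both. With all probe sets of a gene averaged, homozygous minus wild type was 0.94 for Ttr and 0.58 for Afp, and homozygous minus heterozygous was 1.32 for Ttr and 0.94 for Afp. The 5 Afp probe sets differed by 1.06, 0.72, 0.77, 0.45 and -0.07 for homozygous minus wild type, and the last was not called (limma adjusted p = 0.548). All 4 Apoa1 probe sets rose in homozygous against wild-type blood, by 0.78 to 0.96. For heterozygous minus wild type they differed by -0.37, -0.40, -0.18 and -0.52. The second and the last were called (limma adjusted p = 0.0118 and 0.0106). Apom and F10 depended on the probe set chosen. The dimmer Apom probe set gave a homozygous rise of 0.71 (limma adjusted p = 0.000609), against 0.17 for the brighter one (limma adjusted p = 0.206). The 3 F10 probe sets differed by -0.11, -0.59 and 0.21, and only the second was called (limma adjusted p = 0.00103).

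**Figure D3:**
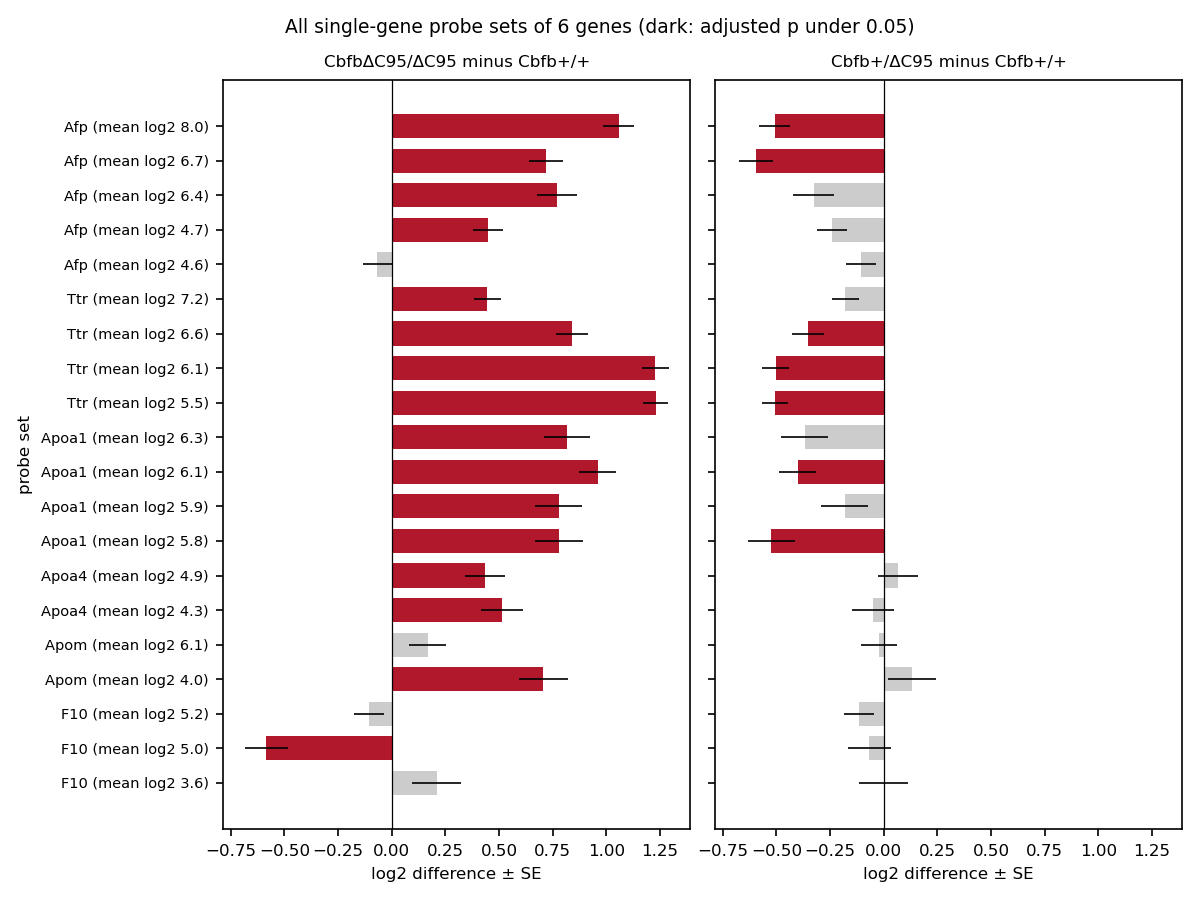
All single-gene probe sets of 6 genes, ordered within a gene by their mean, with bars for the log2 difference ± SE in homozygous minus wild-type blood on the left and heterozygous minus wild-type blood on the right, dark where the adjusted p was under 0.05. Ttr bars on the left reach 0.45 to 1.23, and F10 bars point in both directions.

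The share of genes called differed with signal. Among genes with a mean of 6 or more over the 9 arrays, 22.4% of all genes rose in homozygous against wild-type blood, and 4 of the 5 members of the list in that range did. Between 5 and 6 these were 8.53% and 1 of 6, between 4 and 5 they were 5.58% and 3 of 12, and under 4 they were 2.97% and 1 of 13. Detection calls were not used here, so whether a probe set with a low value measured its transcript is unknown.

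Start windows from RefSeq were found for 31 of the 36 measured genes, among them 8 of the 9 that rose in homozygous against wild-type blood. A CEBP match was found in 6 of these 8, in 8 of the other 23 and in 12.2% of 27025 genes. An HNF1 match was found in 3 of 8, 7 of 23 and 8.24%, a FOXA match in 3 of 8, 5 of 23 and 14.0%, and an HNF4 match in 2 of 8, 2 of 23 and 5.0%. At least 1 motif was present in 6 of 8, 16 of 23 and 32.4%. Both strands were searched, and genes with several windows counted once where any of them held a match.

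Wider liver lists were counted in the same way. Of 33 other liver plasma protein genes, 4 rose and 1 fell in homozygous against wild-type blood, against 10.7% and 14.9% of all genes, with a median of 0.06 beside 0.046 over all genes. In heterozygous against wild-type blood 0 were called (limma adjusted p of 0.05), against 11.8% of all genes. Spp2, a secreted phosphoprotein, averaged 5.17 ± 0.20 on the homozygous, 4.47 ± 0.03 on the heterozygous and 4.54 ± 0.08 on the wild-type arrays. It rose by 0.63 over wild type (limma adjusted p = 0.000245). Apoc2, the activator of lipoprotein lipase, rose by 0.51 (limma adjusted p = 0.0065), Serpina10, an inhibitor of factor X, by 0.32 (limma adjusted p = 0.0342) and Lcat, the cholesterol-esterifying enzyme of plasma, by 0.29 (limma adjusted p = 0.00409). Apoc1, which macrophages also express, was lower, with a difference of -0.43 (limma adjusted p = 0.00651).

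Hepatocyte enzymes, further transcription factors, and uptake and surface genes of the visceral endoderm were counted next. The shares of all genes beside them are 10.7% higher and 14.9% lower in homozygous against wild-type blood. Of 19 hepatocyte metabolic enzymes, 0 rose and 1 fell, the gluconeogenic Fbp1 with a difference of -0.38 (limma adjusted p = 0.00823). Most of the 19 had a mean under 4 over the arrays, a range where 2.97% of all genes rose. Of 15 further transcription factors of liver and endoderm, 1 rose and 2 fell. Creb3l3 rose by 0.23 (limma adjusted p = 0.0316), and Cebpa and Hhex, which blood cells also express, differed by -0.38 and -0.37 (limma adjusted p = 0.00494 and 0.0113). Of 13 further uptake and surface genes of the visceral endoderm, 0 rose and 2 fell. Dab2, an endocytic adaptor that macrophages also express, differed by -2.27 (limma adjusted p = 1.55e-09), and the scaffold gene Pdzk1 by -0.25 (limma adjusted p = 0.0363). In heterozygous against wild-type blood Pdzk1 and the homeobox gene Rhox5 were lower, with differences of -0.46 and -0.47 (limma adjusted p = 0.00247 and 0.00672), and Dab2 was higher by 0.47 (limma adjusted p = 0.000942), beside 7.04% of all genes lower and 4.79% higher.

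Markers of other cells also differed between the genotypes. Summed over the 36 measured genes, linear values ranged from 1717 to 1782 on the homozygous arrays, from 1111 to 1139 on the heterozygous arrays and from 1251 to 1273 on the wild-type arrays. A linear sum is weighted to its brightest genes, here Afp with mean log2 values of 8.92, 7.35 and 7.86 in that order. By count, 9 of the 36 rose in homozygous against wild-type blood, beside 10.7% of all genes, and 27 were not called. Over 15 genes of monocytes and macrophages the sums ranged from 401.6 to 406.1 on the homozygous, 1858 to 1899 on the heterozygous and 2524 to 2564 on the wild-type arrays, and 13 of the 15 fell in homozygous against wild-type blood, beside 14.9% of all genes. Over 11 genes of mesenchyme and matrix they ranged from 418.9 to 445.8 on the homozygous, 651.8 to 682.9 on the heterozygous and 545.4 to 550.7 on the wild-type arrays. Of these 11, 0 rose and 5 fell in homozygous against wild-type blood, beside 10.7% and 14.9% of all genes. In heterozygous against wild-type blood 2 rose and 0 fell, beside 4.79% and 7.04%. Over 9 epithelial genes the sums ranged from 700.8 to 717.1 on the homozygous, 592.8 to 613.9 on the heterozygous and 623.0 to 646.6 on the wild-type arrays. By count, 1 of the 9 rose and 0 fell in homozygous against wild-type blood, beside 10.7% and 14.9% of all genes. In heterozygous against wild-type blood 0 of the 9 were called, beside 11.8% of all genes. The gene that rose, Krt18, a keratin of simple epithelia and hepatocytes, averaged 7.58 ± 0.07 on the homozygous, 7.00 ± 0.04 on the heterozygous and 7.20 ± 0.01 on the wild-type arrays and rose by 0.38 in homozygous blood (limma adjusted p = 0.000393). Its partner Krt8 differed by 0.05 (limma adjusted p = 0.559). None of 10 endothelial genes was called in the 3 contrasts. Of all genes, 25.6% were called in homozygous against wild-type, 11.8% in heterozygous against wild-type and 15.8% in homozygous against heterozygous blood. In heterozygous against wild-type blood 3 of 10 muscle genes and 2 of 9 neural genes rose, beside 4.79% of all genes. Muscle sums ranged from 190.7 to 215.3 on the homozygous, 355.4 to 378.4 on the heterozygous and 200 to 207.4 on the wild-type arrays. The largest muscle difference of heterozygous from wild-type blood was 2.50. Array values have no true zero, so no marker can be called absent. The part of these markers and of the spike-in difference in the results above was not tested.

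**Figure D4:**
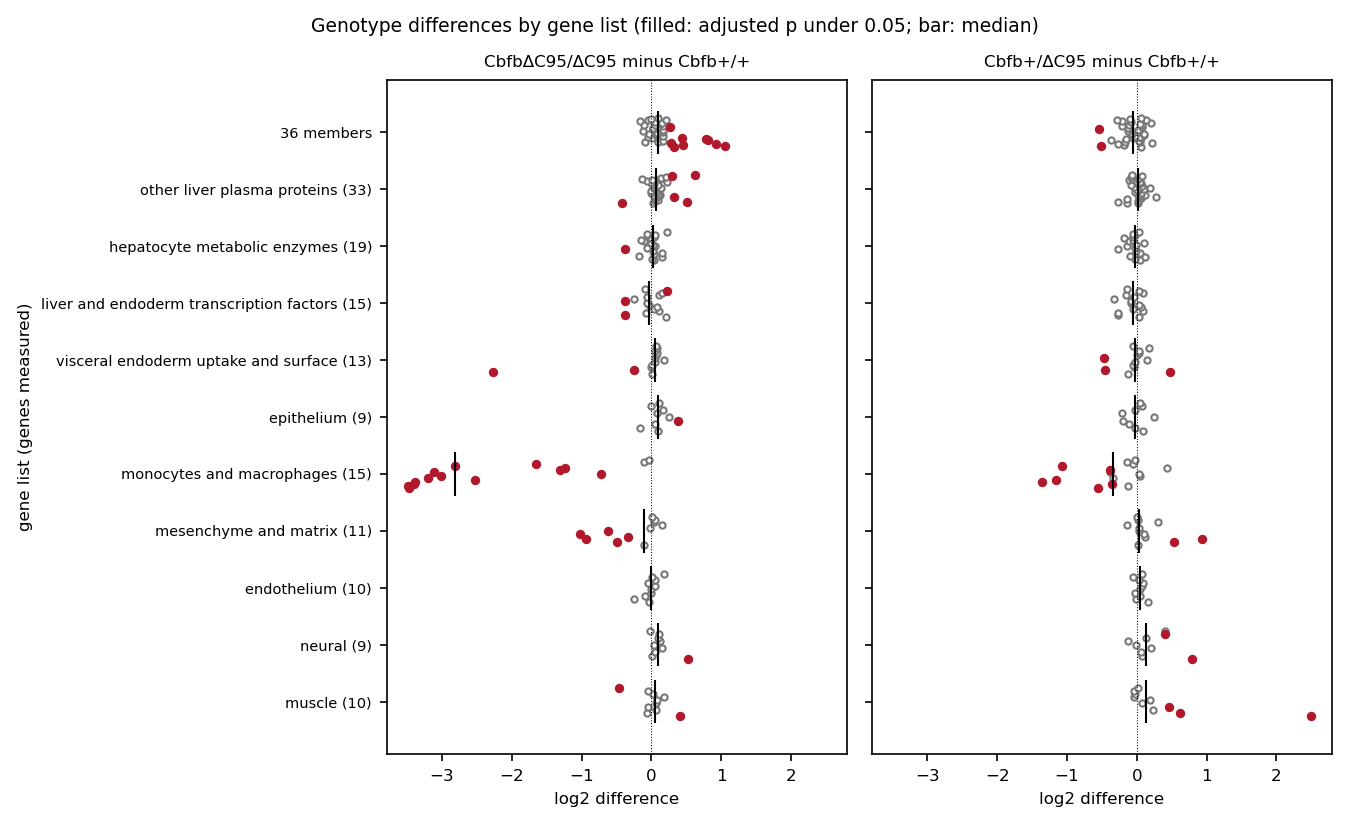
Log2 differences of single genes by list, homozygous minus wild type on the left and heterozygous minus wild type on the right, with filled points for an adjusted p under 0.05 and a bar at each list's median. In the left panel the 36 measured hepatocyte and visceral endoderm genes reach up to 1.06, and the macrophage genes have a median of -2.82. These directions hold for the deposited scaling. With equal spike-in means, which lowers every gene by 1.58 on the left and 0.88 on the right, all 36 lie below 0 on both sides.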

How the data were processed

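Pooled E12.5 blood gave total RNA (RNA-STAT), which was biotin-labelled in one cycle, per the labels' protocols. The authors deposited 1 table of 45101 probe sets for the 9 arrays. The deposited log2 values were made by the authors with RMA, Partek 6.5 and Affymetrix Expression Console 1.0, per the submitters' processing notes, in roles not given. They lie between 1.49 and 14.56, and the log2 scale is read from this range, since no label states it. RMA, as a method, equalizes the arrays' distributions. Detection calls and scans were not used.

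The 64 control probe sets were left out, which left 45037. GEO's platform annotation gave 34945 of these 1 gene and 932 several, and genes were named only from the former kind, updated through RefSeq names (GRCm38.p6). All 9 arrays entered 1 linear model with a term for genotype, fitted by lmFit and eBayes of limma 3.58.1 (R 4.3.3), with 2-sided tests adjusted by Benjamini-Hochberg over 45037 probe sets. The sum of a list is over its genes' linear values, 2 to the power of the deposited value.

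The genes and all lists were chosen with earlier results of these data known. Genes past a threshold of 0.05 in any contrast are given array by array, with the 4 brightest others of the list named, and up to 4 called genes of other lists. The alternative settings were a fit of only the genotypes compared, the replicate number as a block, array weights, a trended robust variance prior, leaving out the 40% dimmest probe sets, other normalizations and scalings, other choices among a gene's probe sets, a 2-fold minimum, a threshold of 0.01 and leaving out each array. Same-numbered arrays deviated together with r of -0.02 to 0.07, so the numbers were not taken as pairs. The fit was tested on simulated data with independent normal noise and changes added to a small part of the probe sets. Those data held no scaling shift between genotypes, so that test cannot bear on the spike-in difference. Figures were drawn with matplotlib 3.10.9.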

Additional observations from a re-analysis of the deposited data

How the results depend on the processing

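Of 753 values recomputed for single genes, 671 kept their side of the threshold with no reversal of a called value, 43 lost and 17 gained a call, and 22 changed sign where a call was involved, all of the 22 under spike-in scaling. Among the 671, 6 uncalled values near 0 changed sign, 5 of Spink1 in homozygous minus wild type and 1 of Apoa4 in heterozygous minus wild type. With equal poly-A spike-in means, chosen after seeing the data, 0 genes rose and 36 fell in homozygous against wild-type blood, 36 fell in heterozygous against wild-type blood, and 4 rose and 30 fell in homozygous against heterozygous blood. This setting lowers every gene alike, by 1.58, 0.88 and 0.70 in these contrasts, and 10 of 10 endothelial genes fell in each. The cause of the spike-in difference was not tested. Homozygous minus wild type was then -0.52 for Afp, -0.66 for Rbp4, -0.76 for Apoa1, -0.80 for Apoa2, -1.13 for Ttr, -1.15 for Apoa4, -1.26 for Alb, -1.30 for Hpx, -1.32 for Fgb, -1.41 for Fgg and -1.56 for Spink1. Heterozygous minus wild type was -0.82 for Alb, -0.66 for Hpx, -0.82 for Apoa4 and -0.80 for Fgb. Homozygous minus heterozygous was -0.074 for Ttr, -0.14 for Spink1, -0.33 for Apoa4, -0.33 for Fgg, -0.44 for Alb, -0.52 for Fgb and -0.64 for Hpx. The 2 genes lower in heterozygous than in wild-type blood became 4 with a trended robust prior, 5 with array weights, 5 with all probe sets of a gene averaged and 0 with a 2-fold minimum, and ranged from 2 to 4 when each array was left out, the 4 being without heterozygous replicate 1. The 0 higher in that contrast became 1 with array weights and 1 with averaging. In homozygous against wild-type blood a 2-fold minimum left 1 higher; averaging gave 1 lower and leaving out sets ending in _x_at or _s_at 1 lower, with 0 to 1 lower when each array was left out, the 1 without homozygous replicate 3. In homozygous against heterozygous blood a 2-fold minimum left 3 higher, leaving out _x_at and _s_at sets gave 1 lower, and leaving out each array gave 6 to 9 higher. Scaling to reference genes moved the median of the 36 genes to 0.16 for homozygous minus wild type and to 0.20 for homozygous minus heterozygous. With a replicate block, 10 genes were higher in homozygous than in wild-type blood, 3 lower in heterozygous than in wild-type blood and 8 higher in homozygous than in heterozygous blood. With 3 arrays a genotype, and signal over background unknown, changes of the dimmer genes are the least certain.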
